A study of Homo sapiens with 4 samples.

Results

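The genes described here are 49 components of DNA replication, from the factors that license origins to the enzymes of the fork, the suppliers of deoxynucleotides and the histone chaperone that follows the fork. They were picked by symbol, mapped from the Ensembl identifiers of the count table, and make up 49 of its 58233 genes in 9 subgroups. Messenger RNA was sequenced from MIA PaCa-2 and PANC-1 cells, 2 established human pancreatic cancer cell lines, after 24 h with cannabichromene (CBC), a non-psychotropic cannabinoid of Cannabis sativa, or with PBS. MIA PaCa-2 cells received 35 µM CBC and PANC-1 cells received 30 µM CBC, with 1 library for each line and treatment and 4 libraries in all. The sample records name the control PBS where the study's methods speak of a vehicle control, and CBC was dissolved in acetonitrile. Whether the control cells received acetonitrile is therefore not clear. If they did not, an effect of the solvent cannot be told apart from that of CBC. The dose differed between the lines, so line and dose cannot be told apart.

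A cell licenses its origins before S phase, when the origin recognition complex (ORC), CDC6 and CDT1 load the ring-shaped MCM helicase onto DNA, while geminin (GMNN) holds CDT1 back once S phase has begun. CDC45 and the GINS complex then join MCM to form the active helicase, and polymerases, the PCNA sliding clamp, its RFC loader and the RPA single-strand binding complex copy the DNA, which needs a supply of deoxynucleotides. Many of these genes are transcribed at the G1 to S transition under E2F transcription factors, and they are widely read as markers of proliferating cells.

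Counts on genes ranged from 21742775 to 27903667 per library. The keratins KRT8, KRT18 and KRT19, which mark epithelial cells, had 3976 to 40044 counts in every library. The keratin KRT7 had 2 to 58 counts per library. EPCAM and CDH1 had 0 or 1 count in MIA PaCa-2 and 32 to 264 counts in PANC-1. The immune, endothelial and islet markers PTPRC, PECAM1, INS and GCG had 0 counts in all 4 libraries, and the stromal collagen COL1A1 was read mainly in PANC-1, with 3037 counts in PBS and 1268 in CBC. The share of counts on mitochondrial genes moved with the treatment, from 5.81% to 3.86% in MIA PaCa-2 and from 4.63% to 2.42% in PANC-1, and its part in the results below was not tested.

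The 49 genes were lower as a group after CBC treatment in both lines. In MIA PaCa-2 their summed level went from 6792 to 3181 CPM (counts scaled to a common library size by the trimmed mean of M-values, TMM), 46.8% of the PBS level. In PANC-1 it went from 5347 to 1771 CPM, 33.1% of the PBS level. The median log2 fold change of the 49 genes was -1.15 in MIA PaCa-2 and -1.66 in PANC-1, beside -0.01 over 14001 genes and 0.02 over 14091 genes that reached 1 CPM in either library of the line. Since RNA was taken from whole cultures, fewer cells in S phase and less of each RNA per cell cannot be told apart. The study set the dose for each line from a viability assay. It also reported more cells stained by Annexin V, a mark of apoptosis, after CBC treatment in both lines. The larger share was in the line whose median fell less. The part of dying cells in these falls, and in the line differences below, was not tested.

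All 49 genes passed the filter of 1 CPM in both lines, with 130 to 14307 counts. After CBC treatment 27 of them were lower by more than 2-fold in MIA PaCa-2, where 8.97% of all genes were, and 39 were in PANC-1, where 7.03% of all genes were. Both lines shared 24 of these genes, against 2.98% of the 12502 genes that passed the filter in both. Another 15 genes were past 2-fold in PANC-1 alone (3.19% of all genes), and RPA1, RPA3 and DUT were in MIA PaCa-2 alone (4.9% of all genes). Some of these lay close to the cutoff in the other line, such as RFC5 at -0.98 (log2) in MIA PaCa-2 and RPA3 at -0.96 in PANC-1. Others did not, such as CDC6 at -0.28 in MIA PaCa-2. ORC2, ORC3, ORC4, ORC5, POLD2, RFC1 and RPA2 were past 2-fold in neither line. No member was higher by more than 2-fold, although 11.5% of all genes were in MIA PaCa-2 and 7.71% in PANC-1.

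**Figure D1:**
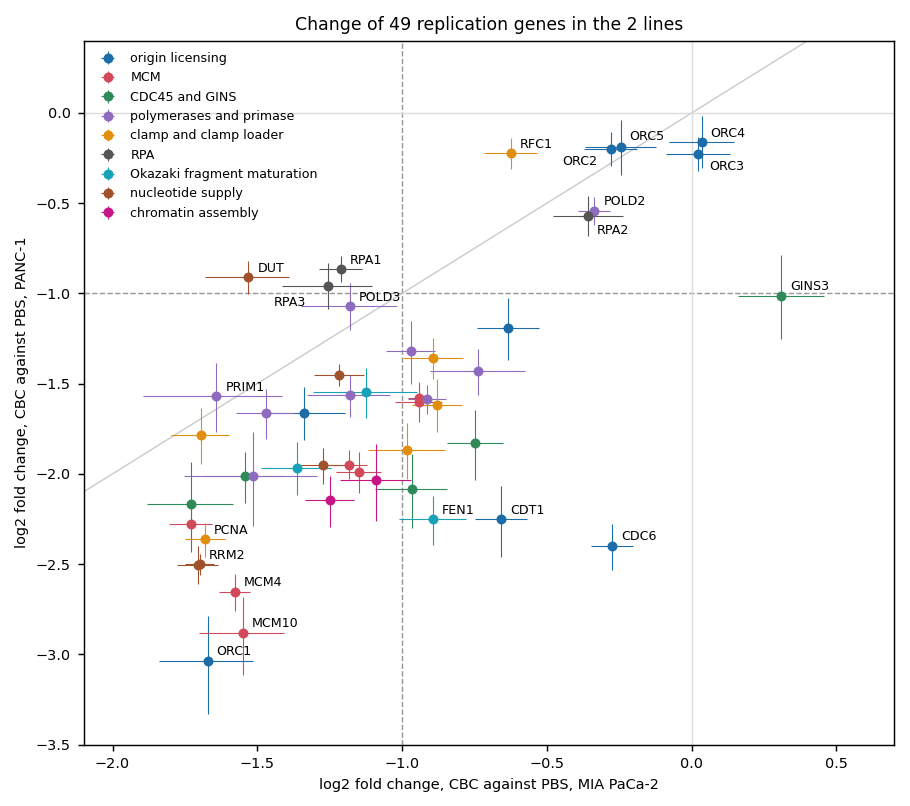
Log2 fold change of CBC against PBS for each of the 49 genes in MIA PaCa-2 (x axis) and PANC-1 (y axis), colored by subgroup, with bars for the 95% counting intervals. Dashed lines mark a 2-fold decrease and the gray diagonal equal changes. Most genes lie below the diagonal, and ORC2 to ORC5 lie near 0 in both lines. CDC6 lies far to the right of the other genes with a similar change in PANC-1, and GINS3 is the point farthest to the right.

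One library per condition gives no test within a line, so the intervals quoted for a line are exact binomial 95% intervals (Clopper-Pearson) that cover counting error only. CBC was tested against PBS with the cell line as a block, in edgeR's quasi-likelihood test with Benjamini-Hochberg adjustment over 16381 genes. The 2 lines are the only replicates of the treatment and leave 1 residual degree of freedom. The p-values of this test therefore set the mean change with CBC against how far that change differs between these lines. The spread was moderated over all tested genes. In this test 36 of the 49 genes fell, where 2.45% of all tested genes did, and 41 had an unadjusted p under 0.05, beside 20.9% of all tested genes. Here and below, a gene that fell is one that was lower at an adjusted p under 0.05 in this test. None of the 49 rose, where 2.26% did, and no member had a positive log2 fold change in this fit, where 51.4% of all tested genes had one. ORC4 came nearest to 0, at -0.06, and stood at 0.0045 with library totals in place of TMM. The log2 fold changes of the 36 genes ran from -2.34 to -1.03 and their edgeR adjusted p from 0.00865 to 0.0463. The 13 genes that did not pass were ORC2 to ORC6, CDC6, CDT1, GINS3, GINS4, PRIM2, POLD2, RFC1 and RPA2. Without the line as a block, 0 of the 49 genes and 0 of all genes passed edgeR's test, and 17 of the 49 had an unadjusted p under 0.05, beside 2.16% of all tested genes.

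**Figure D2:**
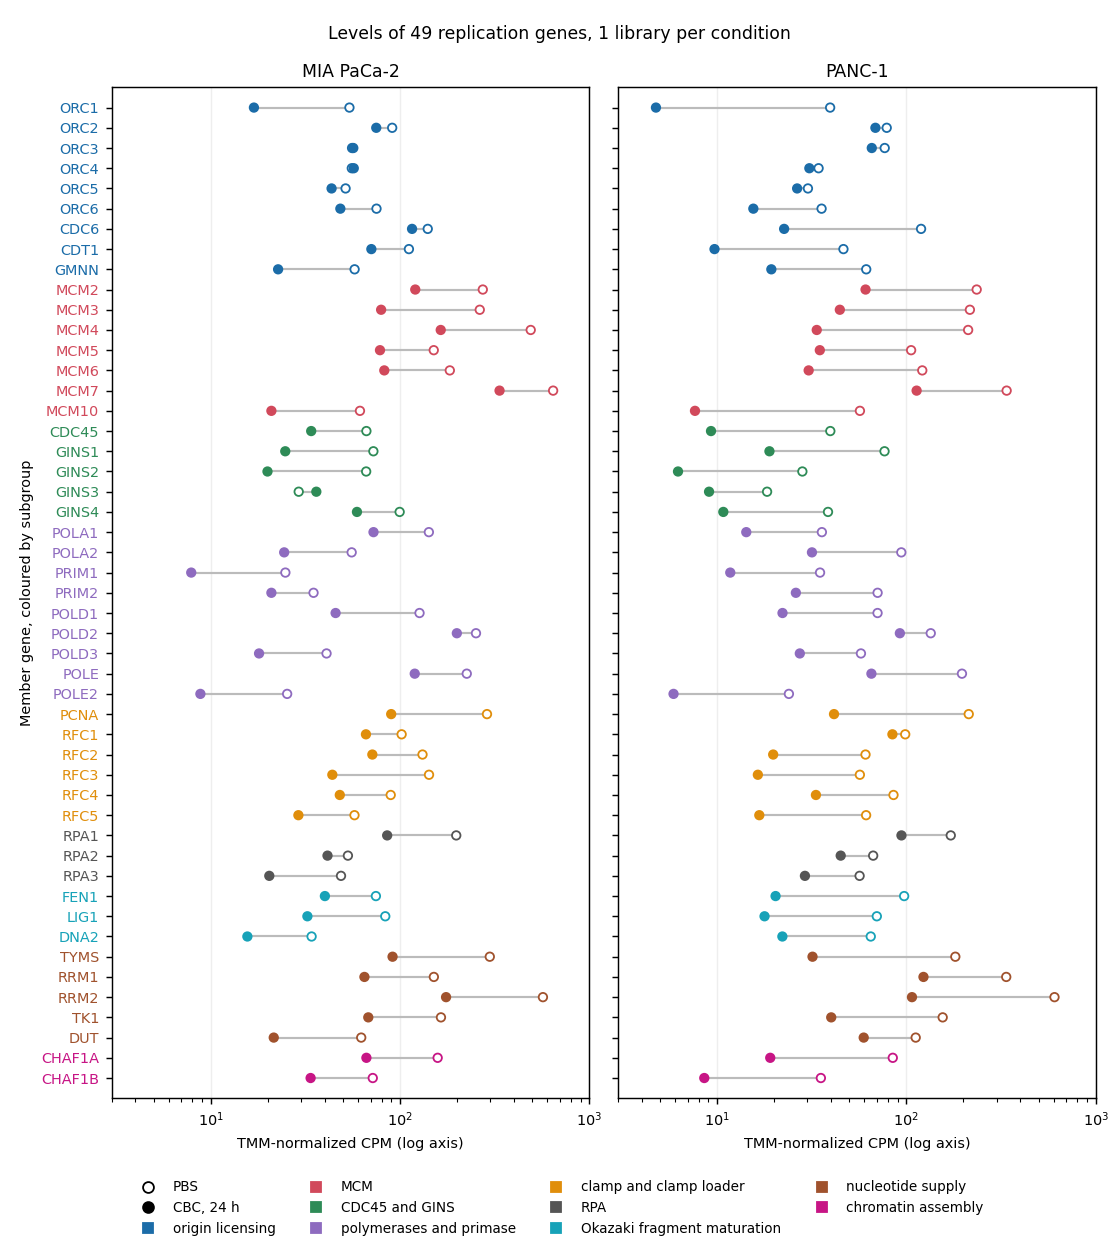
TMM-normalized CPM (log axis) of the 49 genes in MIA PaCa-2 (left) and PANC-1 (right), with open circles for the PBS library and filled circles for the CBC library, 1 library each, colored by subgroup. The filled circle lies left of the open one for nearly every gene, and GINS3 in MIA PaCa-2 is the clearest case of the reverse, at 29.1 CPM in PBS and 36.1 CPM in CBC.

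The start of a gene is where E2F factors are known to bind, so the promoters were read beside the expression values. RefSeq promoter windows of GRCh38.p14, 250 bases before to 50 after the start, were found for 42 of the 49 genes. GINS4, RPA2, MCM4, RPA3, DNA2, POLD3 and MCM5 were not matched. The E2F core was searched on both strands in the spellings TTTCCCGC, TTTCGCGC, TTTGCCGC and TTTGGCGC, which can overlap each other on opposite strands. It was present in 20 of the 42 genes (47.6%), beside 3.99% of 27305 genes with a window of this length. These 27305 genes were not filtered by expression level, unlike the genes behind the shares given above. Among members it was found in 16 of the 31 genes that fell across the lines (51.6%) and in 4 of the 11 that did not pass, which were CDC6, CDT1, GINS3 and ORC3 (36.4%). The general promoter element CCAAT was present in 59.5% of the members and 39.7% of all genes. The cell cycle homology region, spelled TTTGAA or TTCGAA on either strand, was present in 7.14% of the members and 19.5% of all genes. A match of letters is a description and does not show a bound site.

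The 250 bases before the starts of 3 genes show the range of these matches, with capitals marking the E2F core and the first base 5′ on the strand of the gene. MCM6 (chr2:135876444-135876693, minus strand) carried 2 stretches in which matches on opposite strands overlapped, PCNA (chr20:5126623-5126872, minus strand) carried 1 match, and ORC2 (chr2:200963661-200963910, minus strand) carried none.
MCM6: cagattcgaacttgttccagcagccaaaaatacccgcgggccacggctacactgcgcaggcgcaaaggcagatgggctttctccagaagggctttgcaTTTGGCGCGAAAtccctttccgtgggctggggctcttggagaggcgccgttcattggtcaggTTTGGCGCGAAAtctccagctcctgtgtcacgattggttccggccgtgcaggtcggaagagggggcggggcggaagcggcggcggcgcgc
PCNA: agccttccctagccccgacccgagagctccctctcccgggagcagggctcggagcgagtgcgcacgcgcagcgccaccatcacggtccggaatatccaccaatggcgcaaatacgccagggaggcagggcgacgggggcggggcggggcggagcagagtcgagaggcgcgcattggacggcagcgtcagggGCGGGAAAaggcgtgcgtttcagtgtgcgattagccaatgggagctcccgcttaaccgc
ORC2: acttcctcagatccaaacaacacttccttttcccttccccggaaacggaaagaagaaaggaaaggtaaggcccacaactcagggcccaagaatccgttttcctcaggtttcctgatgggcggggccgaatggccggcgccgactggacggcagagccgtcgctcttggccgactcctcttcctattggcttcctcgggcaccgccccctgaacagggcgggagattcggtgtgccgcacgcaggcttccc

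Origin licensing genes ranged from the largest fall of the set to changes near 0. ORC1 (ENSG00000085840, chromosome 1 of GRCh38, 52372829 to 52404423, minus strand), the ORC subunit whose level follows the cell cycle in human cells, was at 54.0 CPM in PBS and 16.9 in CBC in MIA PaCa-2, and at 39.6 and 4.76 CPM in PANC-1. Both CBC libraries lay below both PBS libraries, and across the lines ORC1 fell with a log2 fold change of -2.34 ± 0.38 (SE, edgeR adjusted p = 0.0198), the largest fall among the 49 genes. Its PANC-1 log2 fold change of -3.03 (-3.33 to -2.79) was also the lowest of the 49 in that line. ORC2 to ORC5, the stable core of the complex, had changes between -0.28 and 0.03 on the log2 scale in MIA PaCa-2 and between -0.23 and -0.16 in PANC-1, and none of them passed the test. ORC6 was intermediate, with -0.63 and -1.19, and did not pass either (edgeR adjusted p = 0.0924). Per length, in TPM, which divides counts by exon length, ORC4 was the lowest of the 6 subunits in both PBS libraries, at 23.5 and 14.6 TPM. In both CBC libraries it was ORC1, at 22.4 TPM in MIA PaCa-2 and 6.52 TPM in PANC-1, and the highest subunit stood 10.5 times above it in CBC-treated PANC-1, against 4.87 times above the lowest in PBS. The exon length joins all annotated transcripts of a gene, so rankings in TPM depend on the annotation. In CPM, ORC5 lay below ORC4 in PBS, at 51.5 and 55.6 in MIA PaCa-2 and at 30.2 and 34.4 in PANC-1.

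The helicase loaders separated the lines. CDC6 (ENSG00000094804, chromosome 17, 40287879 to 40304657, plus strand), which joins ORC to recruit the helicase, was at 140.0 CPM in PBS and 116 in CBC in MIA PaCa-2. In PANC-1 it was at 119.6 CPM in PBS and 22.6 in CBC. The log2 fold changes were -0.28 (-0.35 to -0.20) and -2.40 (-2.53 to -2.28), and CDC6 did not pass the test across lines (edgeR adjusted p = 0.159). CDT1, its partner in loading, measured 111 and 70.5 CPM in MIA PaCa-2 and 46.5 and 9.70 CPM in PANC-1, with log2 fold changes of -0.66 and -2.25 (edgeR adjusted p = 0.0806). For both loaders the CBC library of PANC-1 lay far below the other 3 libraries. Geminin, the inhibitor of CDT1, measured 57.5 and 22.7 CPM in MIA PaCa-2 and 61.4 and 19.4 CPM in PANC-1. GMNN fell across the lines with a log2 fold change of -1.50 ± 0.24 (edgeR adjusted p = 0.0206). Of the 9 licensing genes, ORC1 and GMNN were the 2 that passed the test across lines. In PANC-1 5 of the 9 were lower by more than 2-fold, where 7.03% of all genes were. The promoters of the loaders and of their inhibitor each held an E2F core match although their changes differed, and the matches are shown with 10 bases on either side, in the same notation, from chr17:40287876-40287903 (plus), chr16:88803744-88803771 (plus) and chr6:24775323-24775350 (plus).
CDC6: gccattcggaTTTGGCGCgagcgcggct
CDT1: cagggcgcccGCGGGAAAtttggcggga
GMNN: ctgggtcggtTTTGGCGCgctctcactt

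All 7 MCM genes fell. MCM2 to MCM7 form the hexameric helicase, and MCM10 is a separate protein that helps to activate it. MCM3 was at 264 CPM in PBS and 79.4 in CBC in MIA PaCa-2 and at 217 and 44.5 CPM in PANC-1, and it had the lowest adjusted p of the 49 genes, with a log2 fold change of -1.999 ± 0.23 (edgeR adjusted p = 0.00865). MCM4 measured 489.8 and 164 CPM in MIA PaCa-2 and 212 and 33.6 CPM in PANC-1, a log2 fold change of -2.11 ± 0.29 across the lines (edgeR adjusted p = 0.0143). MCM2 was at 273 and 120.3 CPM and at 235 and 60.9 CPM in the same order. In each of these genes both CBC libraries lay below both PBS libraries. MCM7, the most abundant subunit per length in all 4 libraries at 97.7 to 489 TPM, kept 52.1% of its PBS level in MIA PaCa-2 and 33.5% in PANC-1. MCM5 kept 52.0% and 32.9%, and MCM6 kept 45.1% and 25.1%. MCM10 was read at a lower level, 61.4 and 20.9 CPM in MIA PaCa-2 and 56.9 and 7.65 CPM in PANC-1, and its log2 fold change in PANC-1, -2.88 (-3.11 to -2.68), was the second lowest of the 49.

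Unequal falls changed the balance of the subunits. The count ratio of MCM4 to MCM7 went from 0.761 to 0.489 in MIA PaCa-2 and from 0.626 to 0.297 in PANC-1, whereas MCM2 to MCM5 moved less, from 1.82 to 1.54 and from 2.22 to 1.74. In MIA PaCa-2 the most abundant of the 6 helicase subunits stood 6.26 times above the least abundant in PBS and 6.27 times in CBC on the TPM scale, and in PANC-1 4.68 and 6.69 times. In this subgroup MCM2, MCM3, MCM6 and MCM7 held E2F core matches, and MCM4 and MCM5 had no window. The matches of MCM2 (chr3:127598403-127598434, plus), MCM3 (chr6:52284899-52284926 and chr6:52284729-52284756, minus) and MCM7 (chr7:100101567-100101594 and chr7:100101389-100101416, minus) are shown to compare with MCM6.
MCM2: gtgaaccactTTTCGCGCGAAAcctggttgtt
MCM3 far: ggatggtacgTTTCCCGCcaccgcgggg
MCM3 near: gttcggaagtTTTCGCGCcggggtggag
MCM7 far: agctcggaccGCGGGAAAcccggcgcct
MCM7 near: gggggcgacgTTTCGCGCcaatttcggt

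CDC45, GINS1 and GINS2, which turn the loaded MCM ring into a working helicase, fell, and GINS3 and GINS4 did not pass the test. GINS2 was at 66.2 CPM in PBS and 19.9 in CBC in MIA PaCa-2 and at 28.2 and 6.22 CPM in PANC-1, a log2 fold change of -1.94 ± 0.27 (edgeR adjusted p = 0.0144). GINS1 fell by 1.78 on the log2 scale (edgeR adjusted p = 0.0144) and CDC45 by 1.51 (edgeR adjusted p = 0.0427). GINS4 had log2 fold changes of -0.75 and -1.83 in the 2 lines. ORC3, ORC4 and GINS3 had opposite signs in the lines, and of these GINS3 was the one whose counting intervals excluded 0 in both. It had 648 counts in PBS and 893 in CBC in MIA PaCa-2, a log2 fold change of 0.31 (0.16 to 0.46), and 418 and 248 counts in PANC-1, a log2 fold change of -1.01 (-1.25 to -0.79). The 4 proteins form 1 complex, and per length its most and least abundant RNA stood 3.60 times apart in PBS and 3.52 times in CBC in MIA PaCa-2, and 2.66 and 1.33 times apart in PANC-1. GINS3 shared 10.9% and GINS4 21.0% of exon bases with genes on the opposite strand that had 103 and 2 counts over the 4 libraries. The study's methods name a directional library kit, but whether the reads were counted by strand is not given in the sources used here. GINS2 and GINS3 each held a match of the same spelling near the start, at chr16:85688968-85688995 (minus) and chr16:58392456-58392483 (plus), beside changes of opposite sign in MIA PaCa-2.
GINS2: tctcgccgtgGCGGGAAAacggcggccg
GINS3: gtccccgggcGCGGGAAAcgagtttcaa

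Among the polymerase and primase genes 7 of 9 fell. POLA1 and POLA2 encode the catalytic and the second subunit of polymerase alpha, which works with the primase subunits PRIM1 and PRIM2. PRIM1, the catalytic primase, was at 24.8 CPM in PBS and 7.88 in CBC in MIA PaCa-2 and at 35.01 and 11.7 CPM in PANC-1, nearly the same fold in both (-1.64 and -1.57). PRIM1 shared 4.20% of its exon bases with NACA on the same strand. NACA had 41045 counts over all libraries, beside 1863 for PRIM1. PRIM2 had log2 fold changes of -0.74 and -1.43 and did not pass (edgeR adjusted p = 0.0675). POLA1 kept 51.0% and 39.9% of its PBS level, and POLA2 kept 44.01% and 33.7%. POLD1, the catalytic subunit of the lagging strand polymerase delta, measured 127 and 45.6 CPM in MIA PaCa-2 and 70.5 and 22.2 CPM in PANC-1, a log2 fold change of -1.56 ± 0.22 (edgeR adjusted p = 0.0149). Its accessory subunit POLD2 was at 252 and 199 CPM and at 135 and 92.4 CPM, and did not pass (edgeR adjusted p = 0.259). The count ratio of POLD1 to POLD2 moved by almost the same amount in both lines, -1.14 (-1.25 to -1.02) and -1.13 (-1.28 to -0.97) on the log2 scale. POLD3, another delta subunit, fell by 1.12 on the log2 scale (edgeR adjusted p = 0.0418). For polymerase epsilon, which copies the leading strand, the catalytic POLE fell by 1.24 and POLE2 by 1.76 on the log2 scale.

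PCNA (ENSG00000132646, chromosome 20, 5114953 to 5126626, minus strand), the sliding clamp that tethers polymerases to DNA, was at 288 CPM in PBS and 89.7 in CBC in MIA PaCa-2 and at 214 and 41.5 CPM in PANC-1. It fell with a log2 fold change of -2.01 ± 0.24 (edgeR adjusted p = 0.00971). Per length it was the most abundant of the 49 RNAs in both PBS libraries, at 773 and 575 TPM. RFC2 to RFC5, the small subunits of the loader that opens the clamp, fell by 1.12 to 1.74 on the log2 scale. RFC1, the large subunit, measured 102 and 66.0 CPM in MIA PaCa-2 and 98.6 and 84.4 CPM in PANC-1 and did not pass the test (edgeR adjusted p = 0.315). The count ratio of PCNA to RFC1 went from 2.82 to 1.36 in MIA PaCa-2 and from 2.17 to 0.492 in PANC-1. RFC1 was the least abundant loader subunit per length in both PBS libraries, at 57.2 and 55.5 TPM, and the most abundant in CBC-treated PANC-1, at 53.8 TPM. Annotated PCNA pseudogenes had 0 counts in all libraries.

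RPA1, RPA2 and RPA3 form the complex that coats single-stranded DNA, and their changes did not follow those of the clamp. RPA1 was at 198 CPM in PBS and 85.5 in CBC in MIA PaCa-2 and at 172 and 94.2 CPM in PANC-1, and fell by 1.03 on the log2 scale (edgeR adjusted p = 0.0348), the smallest of the 36 falls. RPA3 fell by 1.10 (edgeR adjusted p = 0.0439). RPA2 kept 78.0% and 67.4% of its PBS level and did not pass (edgeR adjusted p = 0.293). The RPA genes were the subgroup with a weaker median in PANC-1 (-0.86) than in MIA PaCa-2 (-1.21).

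All 3 genes of Okazaki fragment maturation fell. FEN1, the flap endonuclease, was at 74.5 CPM in PBS and 40.1 in CBC in MIA PaCa-2 and at 97.4 and 20.4 CPM in PANC-1, with log2 fold changes of -0.89 (-1.01 to -0.78) and -2.25 (-2.39 to -2.12). Its adjusted p was the closest to the threshold among the 36 genes (edgeR adjusted p = 0.0463). LIG1, the ligase that seals the fragments, fell by 1.66 on the log2 scale (edgeR adjusted p = 0.0176). DNA2, a nuclease and helicase that trims long flaps, fell by 1.33 (edgeR adjusted p = 0.0320).

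The 5 genes of nucleotide supply had the lowest subgroup median in MIA PaCa-2, -1.53, and all 5 fell. RRM2, the small subunit of ribonucleotide reductase that is made in S phase, was at 568 CPM in PBS and 175 in CBC in MIA PaCa-2 and at 606 and 107 CPM in PANC-1, a log2 fold change of -2.09 ± 0.24 (edgeR adjusted p = 0.00899). RRM1, the large subunit, was at 151 and 64.8 CPM and at 337 and 123 CPM, with log2 fold changes of -1.22 and -1.45. The count ratio of RRM2 to RRM1 went from 3.77 to 2.699 in MIA PaCa-2 and from 1.80 to 0.870 in PANC-1. RRM2B, the alternative small subunit known as a p53 target, is not one of the 49 and had log2 fold changes of -0.29 (-0.46 to -0.12) and 0.23 (0.11 to 0.36), so that RRM2 to RRM2B went from 21.7 to 8.15 and from 15.1 to 2.27.

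TYMS, which makes thymidylate, was at 298 CPM in PBS and 91.2 in CBC in MIA PaCa-2 and at 181 and 31.9 CPM in PANC-1, a log2 fold change of -2.097 ± 0.26 (edgeR adjusted p = 0.0108). ENOSF1 lies opposite TYMS and shares 39.9% of its exon bases, with 8016 counts beside 13877 for TYMS over the 4 libraries, so some of the TYMS counts cannot be told apart from ENOSF1 without the strand setting. TK1, the salvage kinase of S phase, kept 41.3% and 25.8% of its PBS level and fell by 1.61 on the log2 scale (edgeR adjusted p = 0.0172). DUT, which keeps uracil out of DNA by destroying dUTP, had the reverse order of lines, at 62.3 and 21.5 CPM in MIA PaCa-2 and at 112 and 59.5 CPM in PANC-1. Its log2 fold changes were -1.53 (-1.68 to -1.39) and -0.91 (-1.003 to -0.82). Annotated pseudogene copies of RRM2 and DUT had 8 and 6 counts in all, 0.0238% and 0.0985% of the counts on the genes. DUT shared 14.5% of its exon bases with DUT-AS1, which had 129 counts.

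CHAF1A and CHAF1B, subunits of the chaperone that places new histones behind the fork, both fell. CHAF1A was at 158 CPM in PBS and 66.4 in CBC in MIA PaCa-2 and at 84.8 and 19.1 CPM in PANC-1, a log2 fold change of -1.69 ± 0.28 (edgeR adjusted p = 0.0210). CHAF1B kept 47.0% and 24.2% of its PBS level. The 2 subunits moved together, with line differences of -0.90 and -0.95 on the log2 scale.

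The line difference, the log2 fold change in PANC-1 minus that in MIA PaCa-2, had a median of -0.56 over the 49 genes and 0.01 over all genes. An interaction fit on 4 libraries has no residual degree of freedom, so the difference was not tested. It was negative in 41 of the 49 genes, where 49.2% of all genes were, and its counting interval lay wholly below 0 in 40, where 31.7% of all genes did. The interval lay wholly above 0 in DUT, RFC1, RPA1 and RPA3 (4 of 49, beside 32.8% of all genes). ORC1, CDC6, CDT1, MCM4, MCM10, CDC45, GINS3, GINS4 and FEN1 were lower in PANC-1 by a further 2-fold or more (9 of 49, beside 7.02% of all genes). CDC6 had the largest difference, -2.12 (-2.28 to -1.98), and CDT1 the next, -1.59 (-1.82 to -1.39). No member had a difference above 1, which 5.9% of all genes had, and DUT came nearest with 0.62 (0.45 to 0.80). Across the 49 genes the changes in the 2 lines had a Pearson's r of 0.667 and a Spearman's rho of 0.605, as a description of genes read in the same 4 libraries.

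**Figure D3:**
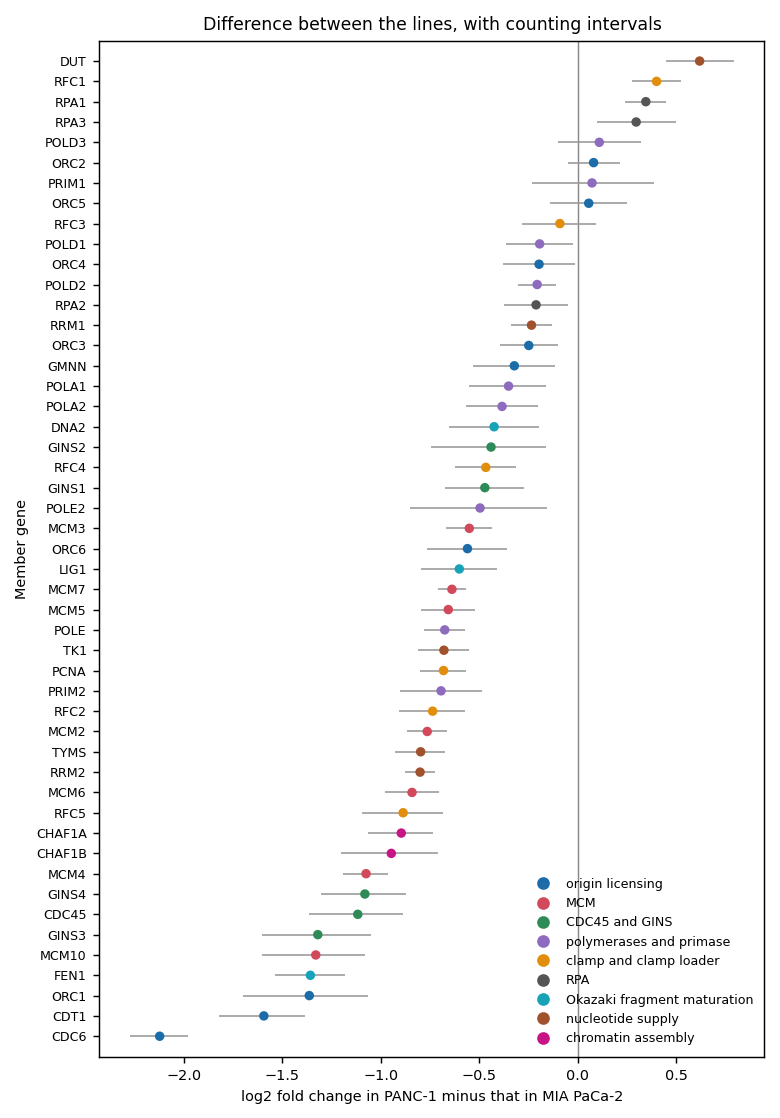
Difference between the lines for each of the 49 genes (log2 fold change in PANC-1 minus that in MIA PaCa-2, x axis), ordered by size and colored by subgroup, with 95% counting intervals as bars. CDC6 and CDT1 lie farthest to the left, and the intervals of DUT, RFC1, RPA1 and RPA3 lie to the right of 0.

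Ratios of genes within a library do not depend on how the libraries are scaled, and most of the pairs examined moved the same way in both lines. The exception was the loader CDT1 against its inhibitor GMNN. The count ratio of CDT1 to GMNN went from 1.94 to 3.11 in MIA PaCa-2, a log2 change of 0.68 (0.51 to 0.85), and from 0.758 to 0.501 in PANC-1, a log2 change of -0.60 (-0.85 to -0.35). The ratio of CDC6 to ORC1 was higher in both lines, from 2.59 to 6.84 and from 3.02 to 4.75, and that of GINS3 to GINS2 was too, from 0.440 to 1.81 and from 0.651 to 1.46. TYMS to DUT went from 4.78 to 4.24 in MIA PaCa-2 and from 1.62 to 0.537 in PANC-1. These ratios carry the counting error of 1 library each and no replicate error.

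**Figure D4:**
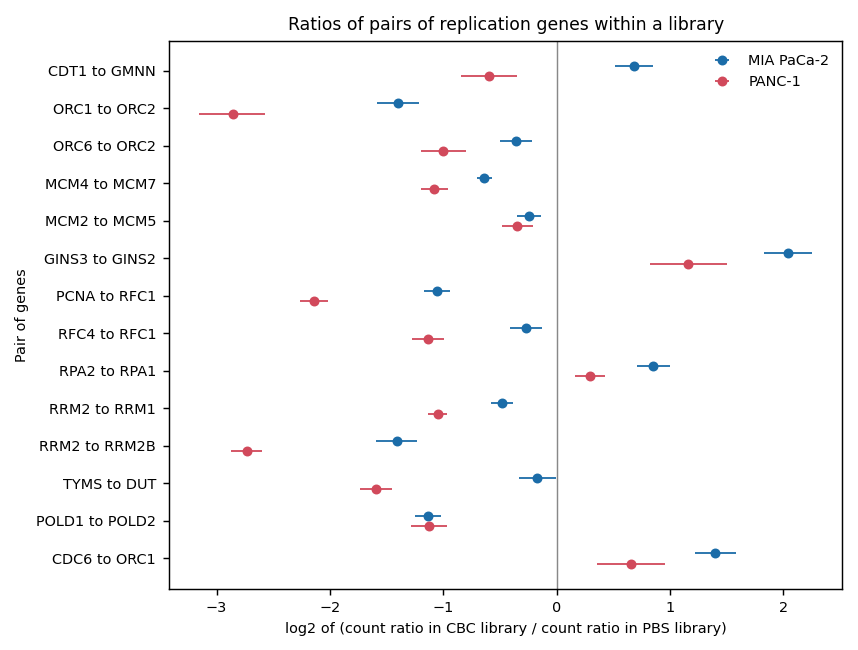
Log2 of the count ratio of each pair of genes in the CBC library over that in the PBS library (x axis), for MIA PaCa-2 (blue) and PANC-1 (red), with 95% counting intervals as bars. CDT1 to GMNN is the pair with a positive value in MIA PaCa-2 and a negative one in PANC-1, and POLD1 to POLD2 has nearly the same value in both.

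Levels before treatment were compared in the PBS libraries, where the median log2 difference of PANC-1 from MIA PaCa-2 was -0.23 over the 49 genes and 0.10 over 14805 genes. PANC-1 was lower by more than 2-fold for 9 of the 49 (18% of all genes), which were ORC6, CDT1, MCM4, GINS2, GINS4, POLA1, RFC2, RFC3 and CHAF1B, and higher for 2 (24% of all genes), PRIM2 and RRM1. POLA1 differed most, with 142 CPM in MIA PaCa-2 and 35.8 in PANC-1. With 1 library a line these differences have no replicate check.

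Other genes of replication were read from a list of 60, of which 20 fell in the test across lines (2.45% of all tested genes did). Of the 60, 18 were lower by more than 2-fold in MIA PaCa-2 (8.97% of all genes) and 24 in PANC-1 (7.03% of all genes). Of 20 fork protection and accessory genes 11 fell. UHRF1, which guides DNA methylation to new strands, had the largest fall of the list, at 213 CPM in PBS and 49.1 in CBC in MIA PaCa-2 and at 112 and 22.4 CPM in PANC-1 (log2 fold change -2.21 ± 0.22, edgeR adjusted p = 0.00614). PCLAF, a PCNA-binding factor, fell by 2.04 on the log2 scale (edgeR adjusted p = 0.0186). Of 11 firing factors and kinases 5 fell, which were CDC7, CDK2, TICRR, TOPBP1 and WDHD1. CDC7, the kinase that phosphorylates MCM, was unlike CDC6 in being lower by more in MIA PaCa-2 (-1.88) than in PANC-1 (-1.11).

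Among 18 other genes of nucleotide synthesis, SAMHD1, which degrades deoxynucleotides, measured 67.6 and 26.1 CPM in MIA PaCa-2 and 40.1 and 21.6 CPM in PANC-1 and fell by 1.13 on the log2 scale (edgeR adjusted p = 0.0459). PAICS, an enzyme of purine synthesis, fell by 0.98 on the log2 scale (edgeR adjusted p = 0.0289), with 50.3% and 50.5% of its PBS level left. The median log2 fold changes of the 18 genes were -0.62 and -0.56. Of 7 damage tolerance polymerases POLQ alone passed, and it fell by 1.37 on the log2 scale (edgeR adjusted p = 0.0213). Of the 4 relatives of MCM and ORC, the helicase MCM8 came nearest to the threshold (-0.67 and -1.46, edgeR adjusted p = 0.0622). Of those among the 60 whose mean level reached 10 CPM, the 3 with the highest mean change were the histone chaperone ASF1A (0.14 and 0.42), the polymerase POLI (-0.09 and 0.62) and the deaminase DCTD (0.08 and 0.34), and none of them passed the test.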

How the data were processed

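Per the labels and the study's methods, the authors sequenced mRNA of 4 libraries, removed adapters and low-quality reads (cutadapt 2.7) and used STAR for alignment to GRCh38 and HTSeq for counting on the genes of Ensembl release 89. Versions of STAR and HTSeq and the strand setting of the counting are not given in the sources used here. The authors deposited raw counts of 58233 genes, unfiltered. They also deposited a normalized signal per library, CPM on TMM library sizes, which matched the counts to a relative difference of 6.84e-09.

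Symbols (57392 of 58233), exon lengths and positions came from GENCODE release 44 on GRCh38, another annotation release than that of the counting, and promoters from RefSeq (GRCh38.p14). The protein motif search that had been planned was not run. Log2 fold changes used edgeR 4.0.16 (R 4.3.3, TMM, prior count 2) for genes that reached 1 CPM in either library of the line. Intervals (95%, scipy 1.17.1) cover counting error only. TPM used exon lengths summed over all annotated transcripts of a gene, without counting overlaps again, so rankings between genes depend on the annotation. The test across lines was edgeR's quasi-likelihood test (legacy deviances, filterByExpr, adjusted p threshold 0.05), tested beforehand on simulated data. Pairing came from the cell line, and the deviations of paired libraries correlated at 0.923 across genes. The common coefficient of variation was 23.0%.

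Alternatives changed the scaling, prior count, filter, call rule, tool (DESeq2 1.42.0), the block and, chosen after seeing the data, the form of the quasi-likelihood fit. All 49 members are named. From other lists, the text takes the 3 genes per direction with the largest mean change at a mean of at least 10 CPM, those past 2-fold in opposite directions (none), RRM2B, E2F1, CCNE1, CCNE2 and CDKN1A. Genes that make up a short count of falls, CDC7 and those with opposite signs in the lines were named after their values were seen. Members, lists and motifs were chosen with earlier results of these data known. One gene that this rule takes is not reported here.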

Additional observations from a re-analysis of the deposited data

Results flagged for a closer look

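Several genes, and 1 ratio, had changes of opposite sign in the lines, so that the single pair of libraries of each line pointed apart. With 1 library per condition none of these differences was tested. The share of all genes with opposite signs in the lines was not counted, so these cases have no background beside them. Over all genes the counting interval of the line difference lay wholly below 0 in 31.7% and wholly above 0 in 32.8%. Among the 49 members GINS3 was the case whose counting intervals excluded 0 in both lines, with a difference (log2 fold change in PANC-1 minus MIA PaCa-2) of -1.32, and the count ratio of CDT1 to GMNN differed by -1.28. Among the other replication genes the differences were 0.53 for POLE4, a polymerase epsilon subunit, 0.40 for TOP1, the topoisomerase that relaxes DNA ahead of the fork, 0.83 for the mitochondrial kinase TK2, 0.52 for RRM2B, 0.56 for REV3L, the catalytic subunit of translesion polymerase zeta, and 1.10 for PRIMPOL, the repriming primase. These genes were higher in PANC-1 and lower in MIA PaCa-2 after CBC treatment. Among the regulators the differences were -0.45 for E2F4, 1.57 for E2F7 and -0.26 for TFDP2.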

How the results depend on the processing

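The 27 and 39 members past 2-fold became 27 and 38 with library totals or the deposited CPM and 25 and 37 where the whole counting interval had to lie past 2-fold. Across lines the 36 members became 29 with DESeq2 size factors, 33 with library totals, 40 with DESeq2, 41 without the filter, 29 with edgeR 4's own deviances (chosen after seeing the data) and 0 with no replicate block, so the result rests on taking out the difference between the lines. Over all genes, 771 calls became 1370 with DESeq2, 2063 without the filter and 0 without the block. ORC4 turned from -0.06 to 0.0045 (log2) with library totals. CDC45, POLD3, RFC2, RFC4, RFC5, RPA3 and FEN1 no longer passed with DESeq2 size factors, nor POLD3, RPA3 and FEN1 with library totals. DESeq2 added ORC6, CDT1, GINS4 and PRIM2. Leaving out a line or library leaves no residual degree of freedom, so it was not run.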

Other observations

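The regulators of the G1 to S transition, 16 genes outside the 49, changed in both directions between libraries. In edgeR's quasi-likelihood test across lines 6 of them fell (2.45% of all tested genes did), which were E2F1, E2F2, E2F8, TFDP1, RBL1 and CCNE2. E2F1, the best known activator of replication genes, was at 91.5 CPM in PBS and 23.4 in CBC in MIA PaCa-2 and at 85.9 and 15.8 CPM in PANC-1, a log2 fold change of -2.20 ± 0.25 (edgeR adjusted p = 0.00841). E2F2, another activator, fell by 2.85 on the log2 scale, and the repressor E2F8 fell by 2.43. Of the E-type cyclins, which drive CDK2 at the start of S phase, CCNE2 fell by 2.15 (edgeR adjusted p = 0.0213), and the CBC library of CCNE1 differed from the PBS library by -0.31 (log2) in MIA PaCa-2 and -1.33 in PANC-1 without passing the test (edgeR adjusted p = 0.217).

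The highest mean changes of the 16 were those of CDKN1A, E2F5 and E2F4, and none of the 3 passed the test. CDKN1A, which encodes the CDK inhibitor p21, had 30 counts in PBS and 933 in CBC in MIA PaCa-2 and 1007 and 1955 counts in PANC-1. In MIA PaCa-2 its CBC library stayed below the PBS library of PANC-1. E2F5 had log2 fold changes of 0.62 and 0.18, and E2F4 of 0.29 and -0.16. E2F7, an atypical repressor, measured 18.1 and 10.3 CPM in MIA PaCa-2 and 74.9 and 127 CPM in PANC-1, so its libraries pointed apart.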
